A study of Mus musculus with 22 samples.

Results

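The 77 genes described here encode proteins of the mitochondrial ribosome. They are the genes whose symbol is Mrpl or Mrps followed by a number and at most 1 letter, and they were chosen by symbol alone. All 77 stood in each of the 3 count tables, of 35255 gene identifiers in any of the tables, and all 77 passed the filter on low counts in every fit. By their known place in the ribosome, 50 belong to the large subunit and 26 to the small subunit. Mrps36, the last, is a subunit of the 2-oxoglutarate dehydrogenase complex and carries the name for historical reasons. Mrps18a and Mrps30 are named after the small subunit but sit in the large one, and were counted there.

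The mitochondrial ribosome translates the few mRNAs of the mitochondrial genome, which encode core subunits of the respiratory chain and of the ATP synthase. Its rRNAs are made inside the organelle, but all of its proteins are encoded in the nucleus, made in the cytosol and imported. Many of its proteins have a bacterial counterpart, and others were added during the evolution of mitochondria. Mature neutrophils hold few mitochondria and live mostly on glycolysis, while macrophages hold more.

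The RNA came from mice with a knockout (KO) of VISTA, an immune checkpoint receptor encoded by Vsir, and from wild-type (WT) mice, with the strain background given as C57BL/6N for both; the labels do not describe the knockout allele further. Bone marrow myeloid progenitors were grown with GM-CSF and IL-6 in normoxia to day 4, which gave 4 WT and 4 KO libraries, stated to be independent biological replicates. Bone marrow myeloid cells in hypoxia for 24 hours gave 4 and 4 libraries, and MC38 tumors, from a mouse colon carcinoma line, gave 3 and 3 at day 7. The normoxia cells are described as purified, bone marrow-derived suppressor cells, while nothing in the labels tells if tumor RNA came from sorted cells. For hypoxia and tumor nothing says that libraries came from separate mice, so p-values there measure the spread between these samples, which may be technical. In both culture tables the KO columns carry a code in place of a genotype. They were taken as KO because every remaining column is marked WT.

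Total counts per library were 23409142 to 23722932 in normoxia, 30839108 to 31385825 in hypoxia and 19119985 to 31716200 in tumor, and the 77 genes held 31177 to 62924 counts of a library. The least counted of them had 23 counts in its lowest library. Vsir in CPM (counts per 1000000 of the library total, scaled by TMM within each table) was at most 242 in KO and at least 651 in WT in normoxia, at most 163 and at least 512 in hypoxia, and at most 128 and at least 427 in tumor. The exact two-sided permutation test on it gave p = 0.0286, 0.0286 and 0.1, each the smallest the design allows. In the libraries labelled tumor tissue, 12 monocyte and macrophage markers summed to 23567 to 28502 CPM in WT and 27967 to 32833 CPM in KO. Of 15 granulocyte markers 14 were in the tumor table and summed to 377 to 405 CPM in WT and 463 to 515 CPM in KO, and 6 of them were under 1 CPM in both groups (Ly6g, Mpo, Elane, Ltf, Ngp and S100a9). The 5 epithelial markers summed to 16.7 to 34.7 CPM in WT and 24.9 to 57.9 CPM in KO, with Epcam, Krt18 and Krt19 under 1 CPM in both.

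The following 4 stretches of DNA, from just before RefSeq starts (GRCm38.p6), are shown because they stand before the genes the results turn on: Mrpl12 and Mrpl52, with the largest falls in hypoxia, Mrpl55, called in all 3 experiments, and Mrps22, a small subunit gene. Each reads 5′ to 3′ on the strand of its gene. Capitals mark a match to the motif of NRF1 (GCGC, any base, then TGCGC) or of GABP (CCGGAAG, or CTTCCGG on the other strand), factors known to bind before nuclear genes of mitochondrial proteins.
Mrpl12, chr11:120484487-120484612, + strand: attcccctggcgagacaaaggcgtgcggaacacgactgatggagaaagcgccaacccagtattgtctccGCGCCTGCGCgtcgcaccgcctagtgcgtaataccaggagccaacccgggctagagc
Mrpl52, chr14:54426759-54426908, + strand: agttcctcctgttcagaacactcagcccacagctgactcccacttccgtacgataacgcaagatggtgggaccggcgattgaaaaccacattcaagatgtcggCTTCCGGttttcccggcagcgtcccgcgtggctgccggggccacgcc
Mrpl55, chr11:59202336-59202485, + strand: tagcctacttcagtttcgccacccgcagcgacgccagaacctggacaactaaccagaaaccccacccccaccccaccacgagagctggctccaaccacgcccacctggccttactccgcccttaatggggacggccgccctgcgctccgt
Mrps22, chr9:98601680-98601829, - strand: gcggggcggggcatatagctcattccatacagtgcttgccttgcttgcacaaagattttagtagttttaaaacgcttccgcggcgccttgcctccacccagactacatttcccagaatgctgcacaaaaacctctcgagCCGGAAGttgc
The Mrpl55 stretch held none of the motifs searched.

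RefSeq windows from 250 bases before to 50 after the start were found for 68 of the 77 genes. A gene with several windows was counted if any of them held the motif. The GABP motif lay in 25 of the 68 (36.8%), against 12.95% of 17492 protein-coding genes. The NRF1 motif lay in 13 (19.1% against 7.17%) and the YY1 motif AAGATGGCG in 8 (11.8% against 2.14%). The E-box CACGTG lay in 5 (7.35% against 8.91%) and the TATA motif TATAAA also in 5 (7.35% against 14.8%). Both strands were searched, the GABP and YY1 motifs can share the letters AAG, and a match is a description of these letters and not a bound site. The median GC content was 58.5% over all windows of these 68 genes and 56.3% over the windows of all protein-coding genes.

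The genes were spread over 17 chromosomes, with 11 on chromosome 11. A protein-coding neighbour started in the other direction within 1000 bases of 19 of the 77 genes (24.7%), against 1555 of 18772 protein-coding genes of the tables (8.28%). Exons of 16 of the genes shared at least 10% of their length with another gene, most of all Mrps25 (69.8%, with Nr2c2) and Mrps34 (63.4%, with Mapk8ip3). Whether reads were counted by strand is not given in the sources used here, so these counts can hold reads of the neighbour.

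Levels between genes were compared as CPM per kb of all annotated exons. In WT normoxia, Mrps21, a small subunit protein with a bacterial counterpart, was highest with 55.7 ± 7.40 CPM per kb (SD, n = 4). Mrpl34 and Mrpl54, both of the large subunit, followed with 43.6 ± 3.84 and 37.6 ± 3.86 CPM per kb, and these last values overlapped within 1 SD. The lowest were Mrps6 (1.87 ± 0.239), Mrpl47 (1.99 ± 0.425) and Mrps35 (2.07 ± 0.0866 CPM per kb), which did not differ beyond their spread. The median over the 77 genes was 9.04 CPM per kb. Annotated exons spanned 0.739, 0.607 and 0.825 kb for Mrps21, Mrpl34 and Mrpl54, and 1.533, 4.419 and 8.631 kb for Mrps6, Mrpl47 and Mrps35. The part of these lengths in the order was not tested. The median coefficient of variation between libraries of a group was 7.2% in WT normoxia and 13.1% in KO normoxia, and 10.5% and 8.26% in hypoxia.

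Rank order changed little with condition, although each table was scaled alone. Across the 77 genes, Spearman's rho of levels per kb was 0.973 between WT hypoxia and WT normoxia and 0.916 between WT tumor and WT normoxia, as a description over genes that share libraries. Some genes still stood away from the order in tumor. Mrps14, a small subunit protein, had 15.3 ± 0.369 CPM per kb in WT tumor (n = 3) and 5.48 ± 0.411 in WT normoxia (n = 4), a ratio of 2.78. Mrpl27 and Mrpl52 stood at ratios of 2.34 and 2.27, and Mrps36 was lowest with 0.476. In all, 41 genes were higher in WT tumor, 36 were lower, and the median ratio was 1.02. These ratios set libraries labelled tumor tissue, which may or may not be sorted cells, beside a culture table and have no test.

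**Figure D1:**
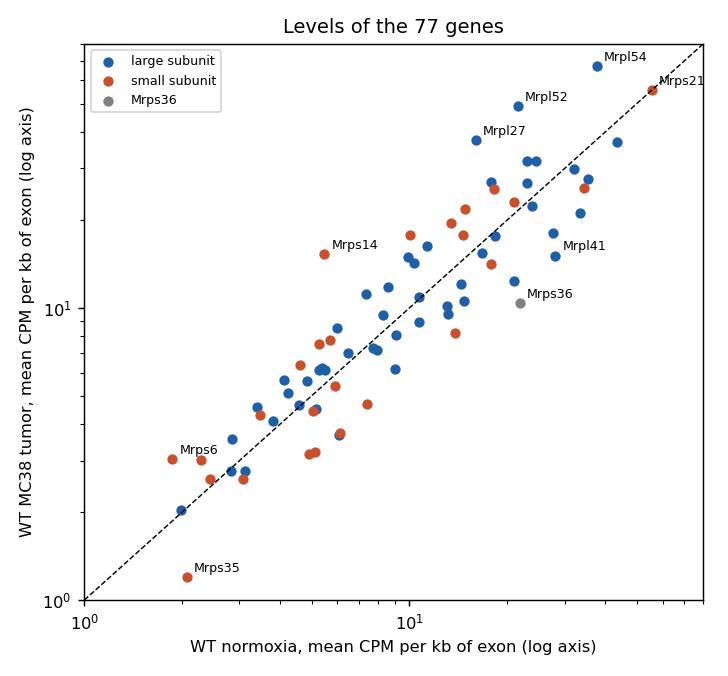
Each point is 1 of the 77 genes, with its mean CPM per kb of exon in WT normoxia (x axis, n = 4) and in WT MC38 tumor (y axis, n = 3), both on log axes, coloured by subunit. Most points lie near the dashed line of equality, Mrps14, Mrpl27 and Mrpl52 lie above it, and Mrps36, Mrpl41 and Mrps35 lie below it.

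The 77 genes together were lower without VISTA in both culture experiments and not in tumor. In normoxia their summed level was 1942, 2096, 1958 and 2011 CPM in the WT and 1720, 1871, 1787 and 1430 CPM in the KO libraries. The groups did not overlap, and KO replicate 4 was the lowest of the 8. From WT to KO the mean went from 2002 ± 69.1 to 1702 ± 192 CPM (SD, n = 4 each), so that KO held 85.0% of the WT level. Bulk RNA cannot tell fewer cells of a type from less RNA per cell, here and in all that follows.

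In hypoxia the sum stood at 1694, 1425, 1646 and 1488 CPM in the WT and 1238, 1247, 1181 and 1288 CPM in the KO libraries, again with no overlap. From WT to KO its mean went from 1563 ± 128 to 1239 ± 44.2 CPM, or 79.2% of WT. In tumor the WT libraries had 2112, 2006 and 2082 CPM and the KO libraries 1979, 2026 and 2087 CPM. These overlapped, and the mean in KO was 98.3% of that in WT.

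**Figure D2:**
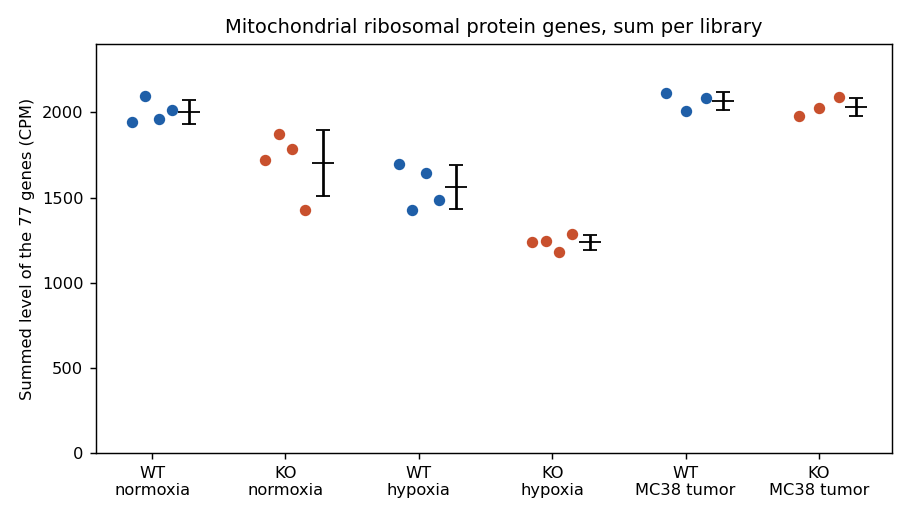
Summed level of the 77 genes in CPM (y axis, from 0) for each library of the 6 groups (x axis), WT in blue and KO in orange, with the mean ± SD in black beside the points (n = 4, 4, 4, 4, 3 and 3). KO lies below WT with no overlap in normoxia and hypoxia, and the tumor groups overlap.

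In normoxia, 10 of the 77 genes fell in KO (edgeR quasi-likelihood test, adjusted p under 0.05) and 0 rose. The share of all tested genes called lower was 4.17%, and 7.13% were called higher. At an unadjusted p under 0.05, 33 were lower and 1, Mrpl33, was higher, where 2116 and 2341 of all 13950 genes were. DESeq2 called 18 of the 77 lower and 0 higher, and 2388 genes in all, against 1577 with edgeR. The log2 fold change lay below 0 for 76 genes, with a median of -0.23 against -0.02 over all genes tested. For 26 genes all KO libraries lay below all WT libraries, a pattern found in 9.33% of all genes.

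Mrpl52 and Mrpl55, both of the large subunit, had the smallest p-values. Mrpl52 is mitochondria-specific and Mrpl55 has a bacterial counterpart. Mrpl52 stood at 23.6, 25.2, 24.4 and 22.5 CPM in WT and at 16.7, 15.9, 14.6 and 15.6 CPM in KO. Every KO value lay well under every WT value, and the log2 fold change was -0.61 ± 0.087 (SE, adjusted p = 0.00282). Mrpl55 stood at 10.8, 12.4, 11.1 and 12.2 CPM in WT and at 8.27, 7.09, 7.19 and 6.56 CPM in KO. These did not overlap either (log2 fold change -0.68 ± 0.11, adjusted p = 0.00532).

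Other large subunit genes fell by similar amounts. Mrpl11, at the base of the stalk that receives translation factors, had 18.4, 18.1, 17.2 and 17.4 CPM in WT and 13.2, 14.3, 13.2 and 10.5 CPM in KO (log2 fold change -0.47 ± 0.11, adjusted p = 0.0189). The KO values were all lower, with replicate 4 lowest. Mrpl23, near the exit of the peptide tunnel, fell from 25.8 ± 1.16 to 17.9 ± 3.02 CPM (-0.53 ± 0.12, adjusted p = 0.0208), and Mrpl50 fell from 19.1 ± 2.0 to 13.7 ± 0.981 CPM (-0.48 ± 0.10, adjusted p = 0.0168). Mrpl13, Mrpl35 and Mrpl38 of the large subunit and Mrps25 and Mrps31 of the small subunit completed the 10, with log2 fold changes from -0.64 (Mrpl38) to -0.35 (Mrpl13).

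Several genes with well known roles did not pass the test in normoxia. Mrpl12, the stalk protein, also described as a partner of the mitochondrial RNA polymerase, had 47.3, 62.4, 40.9 and 53.9 CPM in WT and 42.3, 42.8, 37.8 and 22.5 CPM in KO. The groups overlapped through WT replicate 3, and the log2 fold change was -0.49 ± 0.19 (adjusted p = 0.105). Mrps22, Mrpl3, Mrps7 and Mrps16, all genes in which human mutations cause mitochondrial disease, had values of -0.43, -0.42, -0.25 and -0.10. Mrps12 of the decoding region, Mrpl58, a hydrolase that frees stalled peptides, and Mrpl44 had -0.20, -0.10 and -0.0098. The bacterial S18 homologues Mrps18a, Mrps18b and Mrps18c had -0.28, -0.48 and -0.047, Mrps30 had -0.28, and Mrps36 had -0.31. Among the genes highest and lowest per kb, Mrps21, Mrpl34 and Mrpl54 had -0.020, -0.17 and -0.22, and Mrps6, Mrpl47 and Mrps35 had -0.61, -0.41 and -0.021.

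The count in normoxia rests on which libraries are used. It was 6 without KO replicate 1, 19 without KO replicate 2, 3 without KO replicate 3, WT replicate 1 or WT replicate 4, 4 without WT replicate 2 and 16 without WT replicate 3. Only Mrpl52 and Mrpl55, 2 of the 10, stayed called whichever single library was left out. Mrpl13 and Mrps31 lost the call in 7 of the 8 fits (adjusted p up to 0.108 and 0.102), and Mrps25, Mrpl35 and Mrpl38 in 5. Mrpl50, Mrpl11 and Mrpl23 lost it in 4, 2 and 1.

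In hypoxia, most of the genes fell in KO: 58 of the 77 were lower and 0 were higher by the edgeR test. Of all tested genes 17.6% were called lower and 17.4% higher. At an unadjusted p under 0.05, 67 were lower and 1, Mrpl33, was higher, where 3512 and 3316 of all 15018 genes were, and DESeq2 also called 58 and 0. The median log2 fold change was -0.39 against -0.015 over all genes tested, and 74 genes lay below 0. All KO libraries lay below all WT libraries for 51 genes, against 15.7% of all genes, and above for 1, Mrpl44, against 16.9%.

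Mrpl12 fell most. It had 42.0, 26.9, 45.4 and 35.9 CPM in WT and 19.1, 20.9, 17.2 and 25.2 CPM in KO, with WT replicate 2 only just above KO replicate 4. Its log2 fold change was -0.87 ± 0.16 (adjusted p = 0.00198). Mrpl52 had 18.5, 15.6, 15.3 and 13.5 CPM in WT and 10.5, 8.87, 9.19 and 7.38 CPM in KO, without overlap (-0.81 ± 0.12, adjusted p = 0.000548).

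Mrpl55 had 9.17, 7.94, 10.4 and 7.74 CPM in WT and 5.04, 5.31, 5.66 and 5.76 CPM in KO (-0.70 ± 0.12, adjusted p = 0.00102). Its KO values were all lower. Mrpl38, a mitochondria-specific protein of the large subunit, had the smallest p, with 17.7, 16.7, 19.3 and 19.1 CPM in WT and 12.2, 11.6, 10.8 and 11.6 CPM in KO (-0.66 ± 0.083, adjusted p = 0.000166). The KO libraries were closely grouped and far from WT.

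Mrpl42, Mrpl4 and Mrps5 were also among the 5 smallest p-values, with Mrpl52 and Mrpl38. Mrpl42 of the large subunit fell from 26.7 ± 3.18 to 17.1 ± 1.31 CPM (-0.65 ± 0.096, adjusted p = 0.000479). Mrpl4, a large subunit protein with a bacterial counterpart and one of the higher levels, fell from 63.5 ± 2.46 to 47.9 ± 1.69 CPM (-0.41 ± 0.059, adjusted p = 0.000394). Mrps5, at the entry of the mRNA channel of the small subunit, had 34.4, 27.2, 33.9 and 32.0 CPM in WT and 21.4, 22.1, 19.6 and 23.2 CPM in KO (-0.56 ± 0.089, adjusted p = 0.000679). Again no KO library reached the lowest WT library.

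The small subunit genes Mrps22 (-0.59), Mrps12 (-0.42), Mrps7 (-0.40) and Mrps16 (-0.24) fell in hypoxia, and so did Mrpl3 (-0.37) and Mrpl58 (-0.27). Mrps22 had 10.5, 7.50, 10.7 and 7.68 CPM in WT and 5.24, 5.93, 5.36 and 7.55 CPM in KO, so that KO replicate 4 reached the lower WT libraries (adjusted p = 0.0126). Mrps18a (-0.49) and Mrps18b (-0.55) fell, while the third homologue, Mrps18c, had -0.18 (adjusted p = 0.172). Mrps36 fell (-0.46), and Mrps30 had -0.21 (adjusted p = 0.0969). Of the genes highest per kb Mrps21 (-0.25), Mrpl34 (-0.31) and Mrpl54 (-0.51) fell. The genes lowest per kb, Mrps6, Mrpl47 and Mrps35, had -0.64, -0.39 and -0.15 with no call.

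The 3 genes above 0 in hypoxia, named here after their values were seen, were Mrpl33, Mrpl24 and Mrpl44. Mrpl44, a large subunit protein with a ribonuclease fold, had 16.3, 14.1, 15.9 and 15.6 CPM in WT and 17.2, 17.8, 16.3 and 17.1 CPM in KO. The groups touched without overlapping, and the log2 fold change of 0.15 ± 0.077 did not pass (adjusted p = 0.16). Mrpl33 had 0.17 ± 0.069 (adjusted p = 0.0693) and Mrpl24 had 0.12 ± 0.077 (adjusted p = 0.229). About 7.66% of the exon length of Mrpl44 is shared with Wdfy1 on the other strand, and 26.3% of that of Mrpl24 with Rrnad1.

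The count of 58 fell to 37 without WT replicate 3, and 37 genes were called whichever single library was left out. Among the genes named here, Mrps16, Mrpl58 and Mrpl32 lost the call in 6 of the 8 fits (adjusted p up to 0.11, 0.102 and 0.0992). Mrps21, Mrpl34 and Mrpl51 lost it in 5 (up to 0.0746, 0.116 and 0.102), Mrps14 in 4 (0.0864) and Mrps18b in 1 (0.056). Among the 61 genes that share under 10% of their exon length with another gene, 51 were lower in hypoxia and 9 in normoxia. Among the 16 that share 10% or more, 7 and 1 were lower. Of all genes 17.6% were called lower in hypoxia and 4.17% in normoxia.

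**Figure D3:**
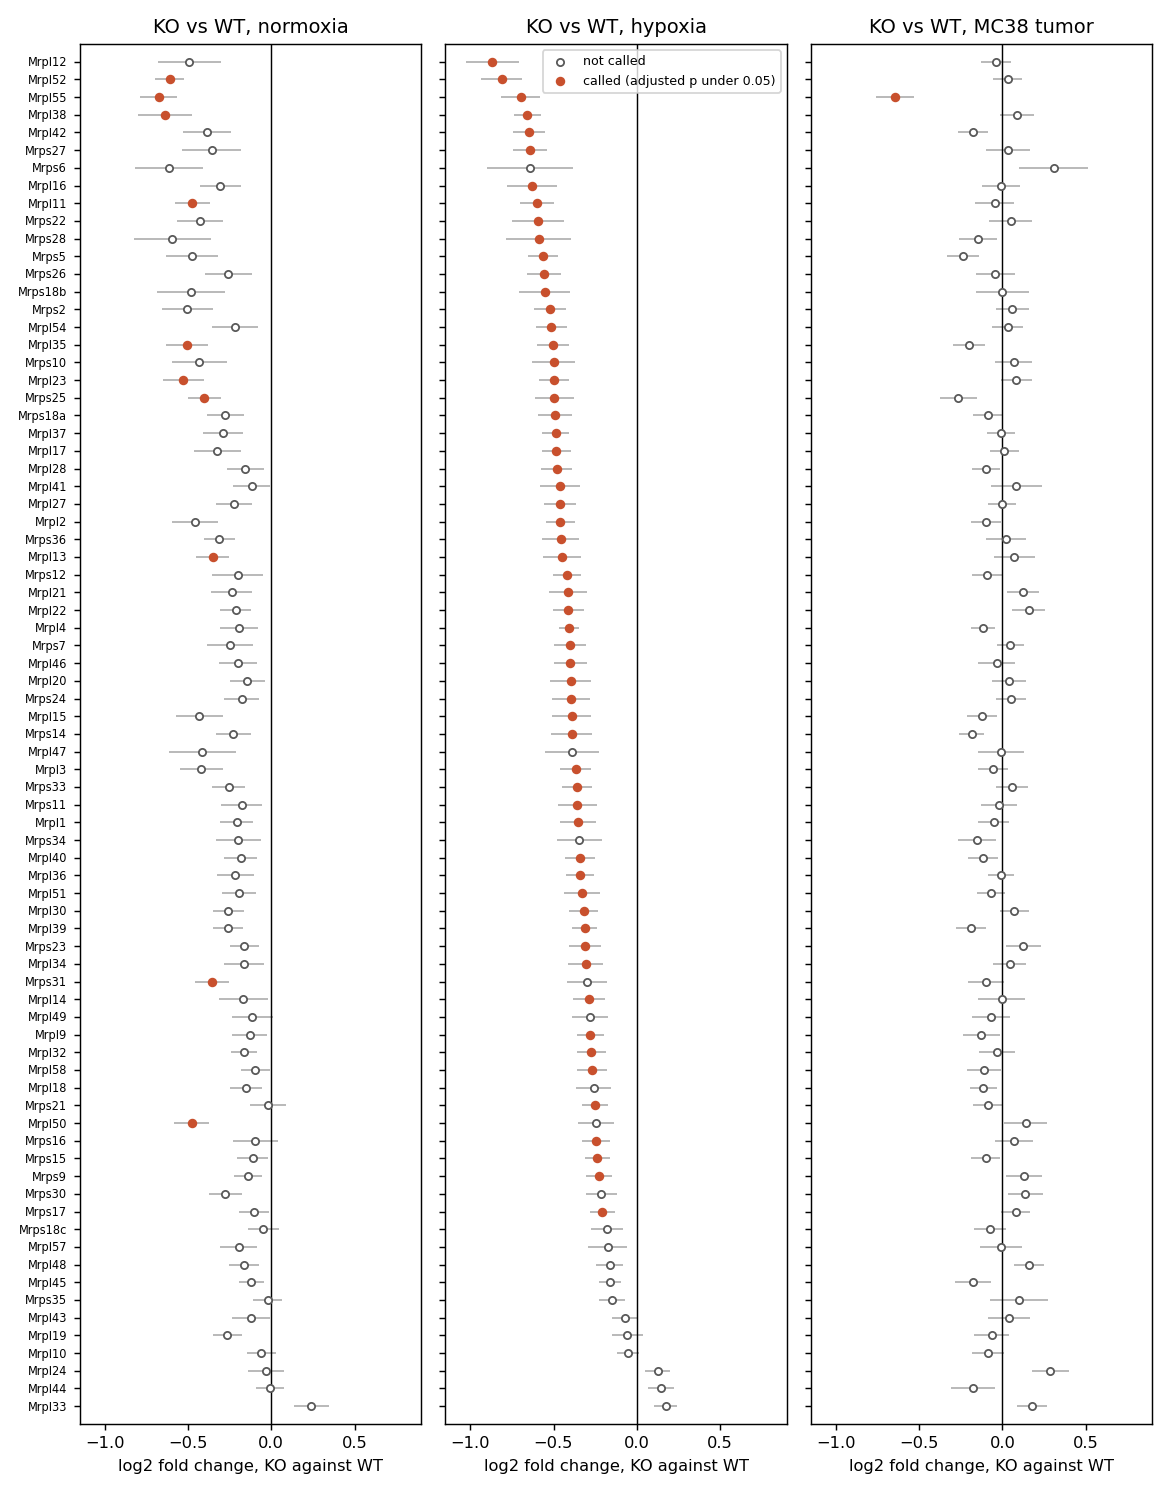
Log2 fold change of KO against WT (x axis) with its SE (grey bars) for each of the 77 genes (y axis, ordered by the value in hypoxia) in normoxia, hypoxia and MC38 tumor. Filled points have an adjusted p under 0.05, which holds for 10, 58 and 1 genes, and every filled point lies below 0.

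**Figure D4:**
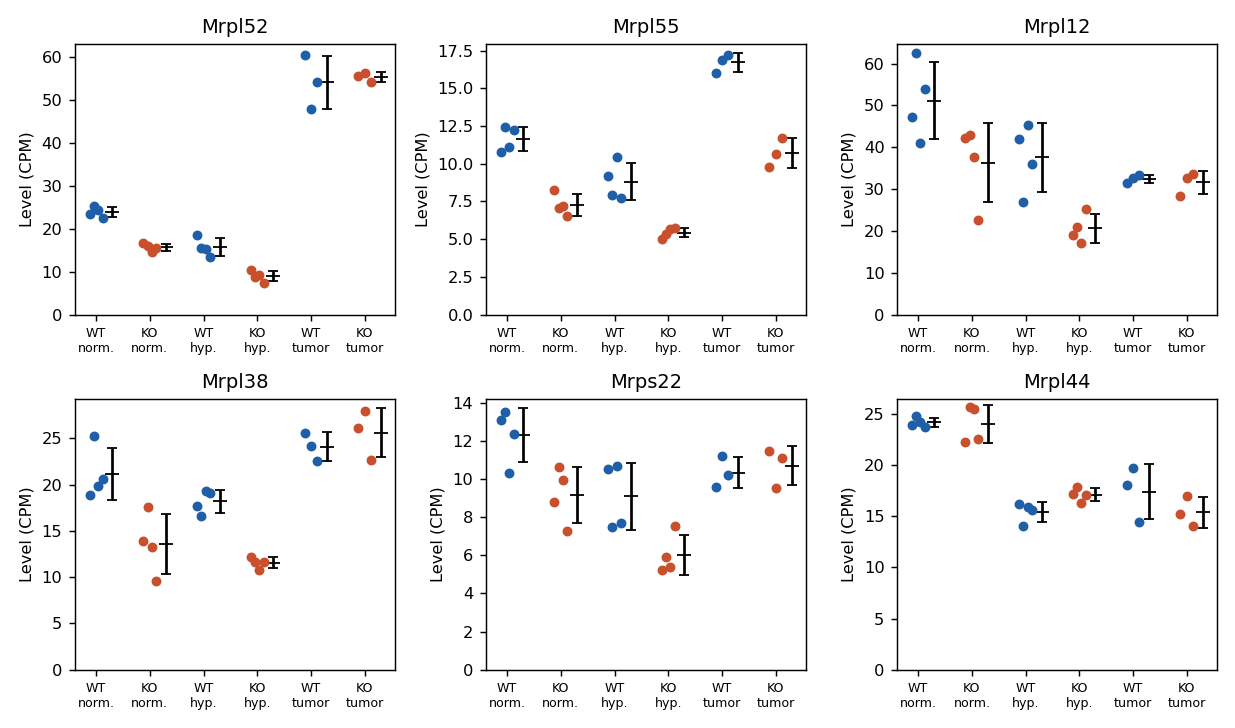
Level in CPM (y axes, from 0) of Mrpl52, Mrpl55, Mrpl12, Mrpl38, Mrps22 and Mrpl44 in each library of the 6 groups (x axes), WT in blue and KO in orange, with mean ± SD in black. KO lies below WT in both cultures for Mrpl52, Mrpl55 and Mrpl38, in tumor for Mrpl55 alone of the 6, and Mrpl44 shows no fall in KO cultures.

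The genes with larger falls in one culture tended to have larger falls in the other. The comparisons in normoxia and hypoxia use different libraries. Across the 77 genes, Spearman's rho between their log2 fold changes was 0.777 and Pearson's r was 0.780, a description over genes that share libraries and depth. In both experiments 74 genes lay below 0. Of the 10 genes called in normoxia 8 were also called in hypoxia (80% of the first list and 13.8% of the second): Mrpl11, Mrpl13, Mrpl23, Mrpl35, Mrpl38, Mrpl52, Mrpl55 and Mrps25. Mrpl50 and Mrps31 were called in normoxia, and their values in hypoxia were -0.25 (adjusted p = 0.0967) and -0.30 (adjusted p = 0.0709).

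The KO effect was further below 0 in hypoxia for 61 of the 77 genes, but the difference of effects was called for 0 genes by edgeR. Of all tested genes 0.288% were called lower and 0.19% higher in this difference. At an unadjusted p under 0.05, 1 gene was lower, Mrpl28 (-0.32 ± 0.14, adjusted p = 0.567, named after its value was seen), and 0 were higher, and DESeq2 called 0 and 0. The median difference was -0.12, against -0.0099 over all genes. The genes named in every comparison lay between -0.37 (Mrpl12, SE 0.28, adjusted p = 0.855) and 0.16 (Mrpl44, SE 0.11, adjusted p = 0.826). Mrpl52 had -0.20 ± 0.15 (adjusted p = 0.857) and Mrpl55 had -0.020 ± 0.16 (adjusted p = 0.995). The larger count in hypoxia is thus not shown to be a larger effect.

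**Figure D5:**
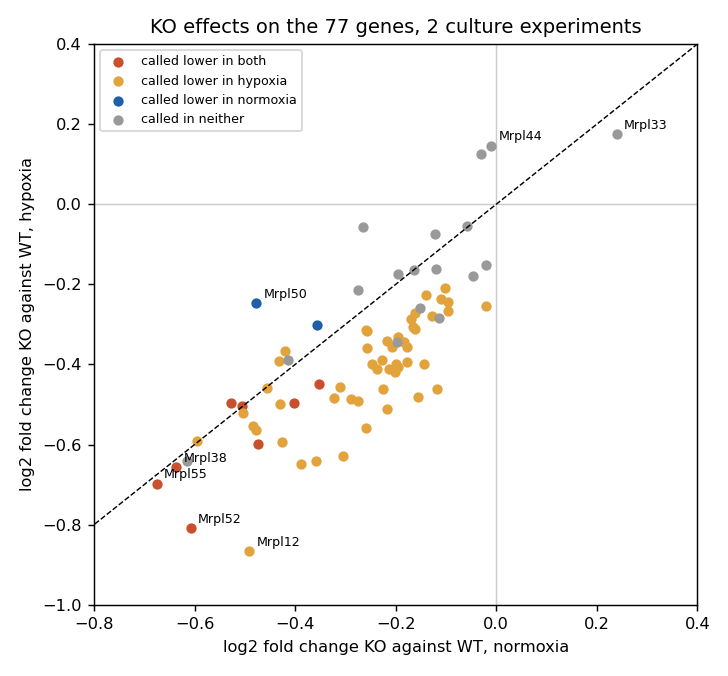
Log2 fold change of KO against WT in normoxia (x axis) and hypoxia (y axis) for each of the 77 genes, coloured by where it was called lower, with a dashed line of equality. Points run along the line, 61 of the 77 lie below it, and 74 lie below 0 on both axes.

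In MC38 tumors 1 of the 77 genes fell in KO and 0 rose by edgeR, where 3.04% of all genes were called lower and 3.28% higher. At an unadjusted p under 0.05, 4 were lower and 1, Mrpl24, was higher, where 1420 and 1540 of all 14370 genes were, and DESeq2 called 1 and 0. Mrpl55 was the gene that fell. It had 16.04, 16.87 and 17.24 CPM in WT and 9.76, 10.7 and 11.7 CPM in KO, without overlap (log2 fold change -0.64 ± 0.11, adjusted p = 0.00533), and was called with each library left out in turn. Its fold changes in the 3 experiments were within 1 SE of one another.

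The other genes were spread around 0 in tumor, with a median of -0.0093 against 0.0098 over all genes, and 33 of the 77 lay above 0. All KO libraries lay below all WT libraries for 10 genes, and above for 5, against 13% of all genes in each direction. Mrpl52, which fell in both cultures, had 60.5, 48.0 and 54.2 CPM in WT and 55.6, 56.4 and 54.2 CPM in KO. The KO values lay inside the WT range (log2 fold change 0.031 ± 0.089, adjusted p = 0.894). Mrpl12 had -0.041 ± 0.090 (adjusted p = 0.857). The remaining genes named in each comparison, Mrpl3, Mrpl44, Mrpl58, Mrps7, Mrps12, Mrps16, Mrps18a, Mrps18b, Mrps18c, Mrps22, Mrps30, Mrps35, Mrps36, Mrps21, Mrpl34, Mrpl54, Mrpl47 and Mrps6, lay between -0.18 (Mrpl44) and 0.31 (Mrps6), and none passed.

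Hypoxia libraries had lower levels of most of the genes than normoxia libraries of the same genotype. Oxygen, length of culture and count table change together here and cannot be told apart. The cells are also described differently, as purified cells from progenitors grown with GM-CSF and IL-6 in normoxia and as bone marrow myeloid cells in hypoxia. Cell type markers differed between the cultures too: in WT 7 of 8 mast cell, 7 of 8 eosinophil, 8 of 10 dendritic cell and MHC class II and 3 of 3 tested erythroid markers were called higher in hypoxia, and 8 of 15 granulocyte markers lower and 1 higher. In KO these counts were 8 of 8, 8 of 8, 6 of 9 and 3 of 3 higher, and 5 of 15 lower and 4 higher. The part of these cell types in the result was not tested. In WT, 43 of the 77 genes were lower and 3 higher in hypoxia by edgeR, where 27.3% and 26% of all genes were called lower and higher. In KO, 48 were lower and 2 higher, where 23.1% and 24.9% of all genes were. The median log2 difference was -0.34 in WT and -0.38 in KO, against -0.032 and -0.015 over all genes. Other lists were lower too. In WT, 15 of 26 ribosome assembly, 10 of 17 translation factor, 40 of 82 nuclear respiratory chain and 11 of 12 cell cycle genes were called lower. In those lists 2, 1, 7 and 0 were higher. In KO 11, 8, 54 and 6 were lower and 2, 0, 4 and 0 higher. Of 81 cytosolic ribosomal protein genes 14 were lower and 24 higher in WT, and 16 and 23 in KO.

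Mrps36 fell most in hypoxia, from 27.8 ± 1.12 to 12.9 ± 1.70 CPM in WT (-1.01 ± 0.10, adjusted p = 4.58e-06) and from 22.4 ± 2.21 to 9.39 ± 0.841 CPM in KO (-1.13 ± 0.10, adjusted p = 6.81e-06). The 2-oxoglutarate dehydrogenase complex it belongs to is a step of the citric acid cycle. Mrps12 fell in WT and KO (-0.59 and -0.79), as did Mrpl44 (-0.55 and -0.37), Mrpl52 (-0.50 and -0.68), Mrpl54 (-0.48 and -0.75), Mrps7 (-0.40 and -0.53), Mrpl58 (-0.33 and -0.47), Mrps18a (-0.41 and -0.60) and Mrps18b (-0.52 and -0.56). Mrpl12 had -0.35 in WT (adjusted p = 0.0998) and fell in KO (-0.70, adjusted p = 0.0103). Mrps22, Mrps18c and Mrps35 were likewise called in KO (-0.48, -0.30 and -0.28) and not in WT (-0.34, -0.19 and -0.18), and Mrpl3 in WT (-0.27) and not in KO (-0.19); these differences between genotypes are the difference of effects, which was called for 0 genes. Mrps16, Mrps30, Mrps6 and Mrpl47 were called in neither genotype. With each of 8 libraries left out in turn, 35 of the 43 calls in WT and 35 of the 48 in KO held throughout. Those lost in some fits include Mrps18b in 5 of 8 in each genotype (adjusted p up to 0.0765 in WT and 0.0848 in KO), Mrpl3 in WT in 5 (0.136), and Mrps22 and Mrps18c in KO in 5 and 4 (0.0679 and 0.083).

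The genes that rose in hypoxia were Mrpl45, Mrpl43 and, in WT, Mrpl37, named after their values were seen. Mrpl45, which ties the ribosome to the inner membrane beside the exit of the tunnel, had 53.5, 52.4, 54.4 and 56.7 CPM in WT normoxia and 76.7, 75.6, 82.0 and 80.7 CPM in WT hypoxia. The groups lay far apart (0.64 ± 0.065, adjusted p = 5.67e-06), and in KO it rose by 0.62 ± 0.082 on the log2 scale (adjusted p = 0.000102). Mrpl43 rose by 0.55 ± 0.088 in WT (adjusted p = 0.000227) and by 0.62 ± 0.105 in KO (adjusted p = 0.000579), and 33.4% of its exon length is shared with Twnk, the mitochondrial DNA helicase, on the other strand. Mrpl37 rose by 0.25 ± 0.087 in WT (adjusted p = 0.028), a call lost in 5 of the 8 fits with a library left out (adjusted p up to 0.0745), and had 0.077 ± 0.12 in KO. The calls of Mrpl45 and Mrpl43 held in all of them.

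Both subunits had medians below 0 in the KO cultures. In hypoxia 21 of 26 small subunit (80.8%) and 36 of 50 large subunit genes (72%) were lower, with medians of -0.39 and -0.38. In normoxia 2 of 26 (7.69%) and 8 of 50 (16%) were lower, with medians of -0.24 and -0.22. Of all genes 17.6% were called lower in hypoxia and 4.17% in normoxia. Split by evolutionary origin, hypoxia called 14 of 16 small and 24 of 30 large subunit genes with a bacterial counterpart, and 7 of 10 and 12 of 20 that are mitochondria-specific. In the same order normoxia called 0 of 16 and 5 of 30, and 2 of 10 and 3 of 20. The ratio of the summed small to the summed large subunit level was 0.386, 0.380, 0.391 and 0.383 in WT hypoxia and 0.369, 0.373, 0.371 and 0.374 in KO hypoxia. KO lay below WT in each library, by a few hundredths at most. In normoxia (0.406 to 0.414 in WT and 0.403 to 0.418 in KO) and in tumor (0.395 to 0.409 and 0.397 to 0.415) the ratios overlapped.

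Some mitochondrial ribosomal proteins go by other symbols. In hypoxia 3 of 5 were called lower in KO, where 17.6% of all genes were. These 3 were Dap3, a GTP-binding protein of the small subunit (-0.26), Chchd1 of the small subunit (-0.44) and Gadd45gip1 of the large subunit (-0.53). Ptcd3 had -0.33 (adjusted p = 0.103) and Aurkaip1 -0.041 (adjusted p = 0.677). In normoxia and tumor 0 of the 5 were called, where 4.17% and 3.04% of all genes were called lower. At an unadjusted p under 0.05, 2 and 1 of the 5 were lower, where 2116 of 13950 and 1420 of 14370 genes were.

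Factors that build the ribosome or act with it were called in part in hypoxia, where 17.6% of all genes were called lower. Of 26 genes for its assembly 5 were lower (19.2%), which is near that share, and Rbfa, a small subunit assembly factor, was higher (0.28). Of 17 tested translation factors 7 were lower (41.2%), among them Tufm, which brings aminoacyl-tRNA to the ribosome (-0.51 ± 0.071), its exchange factor Tsfm (-0.60 ± 0.16) and the elongation factor Gfm1 (-0.41 ± 0.11). Of 20 genes that charge mitochondrial tRNAs 8 were lower (40%), with the largest falls in Ears2 (-0.64) and Gatb (-0.59). Of 6 transcription genes 1 was lower (16.7%, near the share of all genes): Polrmt, the mitochondrial RNA polymerase (-0.40 ± 0.085). In normoxia 4.17% of all genes were called lower. There 1 of 20 tRNA charging genes (Iars2, -0.29) and 1 of 6 transcription genes (Tefm, -0.46) were lower, and 0 assembly and translation factors were called. At an unadjusted p under 0.05, 8 assembly, 9 translation factor, 11 tRNA charging and 3 transcription genes were lower. At that threshold 1 assembly gene was higher and 0 in the other lists, where 2116 of all 13950 genes were lower and 2341 higher. In tumor 0 were called in any of the 4 lists, where 3.04% of all genes were called lower and 3.28% higher. At an unadjusted p under 0.05, assembly, translation, tRNA charging and transcription had 0, 4, 1 and 0 lower and 0 higher. Of all 14370 genes 1420 were lower and 1540 higher at that threshold.

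Of 11 regulators of mitochondrial biogenesis and growth, 9, 10 and 9 were tested in normoxia, hypoxia and tumor. In normoxia 0 were called. In hypoxia 2 were lower and 1 higher, where 17.6% and 17.4% of all genes were. In tumor 1 was lower and 1 higher (11.1% each), where 3.04% and 3.28% of all genes were. Nrf1 and Gabpa, which bind motifs counted in the start regions, had -0.0100 and -0.030 in hypoxia and 0.048 and -0.068 in normoxia, with no call. The coactivators Ppargc1b (-0.64 ± 0.13) and Pprc1 (-0.63 ± 0.13) fell in KO hypoxia, and Sp1 rose (0.19 ± 0.066). In tumor Ppargc1b rose (1.02 ± 0.16) and Myc fell (-0.63 ± 0.13). Myc had -0.89 ± 0.45 in normoxia (adjusted p = 0.199) and -0.059 ± 0.10 in hypoxia. Of 12 cell cycle genes 0 were called in normoxia, hypoxia or tumor, and 3, 3 and 1 were lower at an unadjusted p under 0.05.

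Other large groups of ribosomal and respiratory genes fell beside the 77 in KO hypoxia, where 17.6% of all genes were called lower. In hypoxia 65 of 82 nuclear genes of the respiratory chain were lower and 1 higher, with a median of -0.36, and 58 of 81 tested cytosolic ribosomal protein genes were lower and 0 higher (1 at an unadjusted p under 0.05), with a median of -0.24. In normoxia 5 of 80 (6.25%) and 7 of 81 (8.64%) were lower, with medians of -0.16 and -0.18, where 4.17% of all genes were lower. In tumor 2 of 82 (2.44%) and 0 of 81 were lower, where 3.04% of all genes were. Whether the 77 genes fell more than these was not tested. Of the 13 protein-coding genes of the mitochondrial genome, whose mRNAs this ribosome reads, 0 were called lower: 3 rose in normoxia (mt-Nd4, mt-Nd4l and mt-Cytb, 0.45 to 0.50), where all 13 were higher at an unadjusted p under 0.05, with a median of 0.37. In hypoxia 0 were called and 1 was higher at an unadjusted p under 0.05, with a median of 0.029. In tumor 0 were called and 1 was higher at an unadjusted p under 0.05, but all 13 lay above 0 (median 0.41). For 7 of them all KO libraries lay above all WT libraries, a pattern found in 13% of all genes. Mitochondrial genome genes held 3.78% to 4.72% of the counts in WT normoxia and 4.37% to 5.51% in KO normoxia. In hypoxia they held 3.99% to 4.92% in WT and 3.65% to 4.88% in KO, and in tumor 0.0864% to 0.162% and 0.170% to 0.196%. The part of this share in the result was not tested.

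Granulocyte markers, a list that holds genes of early precursors (Elane, Mpo) and of later stages (Ltf, Mmp8), were higher in both KO cultures. Of all genes tested, 7.13% were called higher and 4.17% lower in KO normoxia, and 17.4% and 17.6% in KO hypoxia. The summed level of 15 granulocyte markers was 35756 to 48371 CPM in WT and 50760 to 73118 CPM in KO normoxia, and 27560 to 37106 CPM in WT and 55503 to 68179 CPM in KO hypoxia, and 10 and 13 of the 15 were called higher. None of the 15 was under 1 CPM in any culture group. Markers of mast cells and basophils (7 of 7 tested called higher in normoxia, 8 of 8 in hypoxia) and of eosinophils (3 of 6 and 8 of 8) were higher as well. The summed mast cell markers were 44.5 to 64.2 CPM in WT and 93.4 to 128 CPM in KO normoxia, and 476 to 737 CPM and 739 to 1067 CPM in hypoxia. The eosinophil markers summed to 97.9 to 128 CPM in WT and 130 to 189 CPM in KO normoxia, and to 1114 to 1773 CPM and 2199 to 3900 CPM in hypoxia. Of B and plasma cell markers 4 of 6 tested were higher in each culture, from 36.6 to 51.4 CPM in WT to 96.1 to 155 CPM in KO normoxia and from 69.1 to 84.5 to 127 to 210 CPM in hypoxia. Dendritic cell and MHC class II markers were higher in 5 of 9 in normoxia (147 to 279 CPM in WT and 326 to 674 CPM in KO). In hypoxia 1 of 10 was higher and 1 lower, and 9 lay below 0 (848 to 1348 CPM in WT and 459 to 1041 CPM in KO). Of the erythroid markers 3 of 4 tested were lower in KO hypoxia (24.0 to 80.6 CPM in WT and 6.20 to 12.2 CPM in KO), and in normoxia they summed to under 1 CPM. Monocyte and macrophage markers were higher in 3 of 12 in normoxia, and 2 higher and 1 lower in hypoxia. T and NK cell markers, 7 of 8 of them under 1 CPM in hypoxia, were higher in 2 of 2 tested there. In tumor 3.28% of all genes were called higher in KO and 3.04% lower. Of dendritic cell and MHC class II markers 6 of 10 were higher there, and of erythroid markers 3 of 4 tested. Of T and NK cell markers 3 of 8 were lower, and of 9 tested granulocyte markers 2 were higher and 1 lower. The part of these cell types in the result was not tested.

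Genes that start beside 1 of the 77 were also measured. Of the 19 genes with a divergent neighbour, 13 were lower in KO hypoxia, with a median of -0.34, while 4 of the 19 neighbours were lower and 1 higher, with a median of -0.063. Over all genes 17.6% were called lower and 17.4% higher, so the count of lower neighbours is near the background. The 4 lower neighbours stood beside genes that were also called lower. They were Psma2 (-0.29) beside Mrpl32, Ndufs6 (-0.48) beside Mrpl36, Cyb5rl (-0.54) beside Mrpl37 and Ncapd2 (-0.43) beside Mrpl51. The calls of Mrpl32 and Mrpl51 were lost in 6 and 5 of the 8 fits with a library left out. Pnpla7 rose (0.33) beside Mrpl41, which fell (-0.46). Other neighbours stayed near 0 beside a gene that fell. Within 207 bases, Klc4 beside Mrpl2 had 0.024 while Mrpl2 fell by 0.46 on the log2 scale, and within 128 bases Zfp661 beside Mrps5 had 0.0037 while Mrps5 fell by 0.56.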

How the data were processed

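The authors deposited raw counts by Ensembl gene, 1 table for each of the 3 experiments. The submitters' processing notes name Subread, featureCounts, DESeq2 and the build GRCm38.p6, without versions or roles, and the labels' protocols name a SMART-Seq kit by Takara. Normalized tables were not used here. Symbols and exons came from GENCODE M21 (35134 of 35255 identifiers matched), promoter sequences from RefSeq.

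Separate fits per experiment used edgeR 4.0.16 under R 4.3.3 (low counts removed by filterByExpr at a minimum count of 10, TMM scaling, robust quasi-likelihood test, Benjamini-Hochberg adjustment over all genes tested, threshold 0.05). Called means past that threshold. Hypoxia against normoxia and the difference of KO effects were fitted over the culture libraries concerned. The fits were tested on simulated counts. Levels are CPM per table, as mean ± SD. Alternatives were DESeq2 1.42.0, DESeq2 size factors in edgeR, library size alone, no filter, a replicate block and each library left out. Within each group no library was a copy of another (lowest chi-square divided by its degrees of freedom, 4.91), and libraries of different groups were not compared in this way.

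A symbol rule alone sets the members, but this group of genes and the lists were chosen with earlier results of these data known. Named were the 5 called genes with the smallest p per direction and KO comparison, the 3 highest and 3 lowest per kb in WT normoxia, and 14 genes given in every comparison.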

Additional observations from a re-analysis of the deposited data

Results flagged for a closer look

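In 4 of 116 groups of 4 libraries examined (28 named genes and the summed level in the 4 culture groups), 1 library stood apart from the other 3 by Dixon's criterion, which chance meets in about 1 in 20 groups. Mrpl23 was low in WT normoxia replicate 1 (24.1 CPM, the others 26.2 to 26.6) and in KO normoxia replicate 4 (13.4 CPM, the others 19.1 to 19.8). Mrpl3, a large subunit gene, was low in WT normoxia replicate 3 (26.2 CPM, the others 31.5 to 32.3). Mrpl50 was high in KO hypoxia replicate 4 (13.3 CPM, the others 10.6 to 10.8). Mrpl50 was not called in hypoxia (-0.25, edgeR adjusted p = 0.0967).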

How the results depend on the processing

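The count of genes lower in KO normoxia (10) was 18 with DESeq2, 16 with a replicate block, and 21 without KO replicate 4 and WT replicate 3 together, an alternative chosen after seeing the data, and ranged from 3 to 19 with single libraries left out. Calls over all genes moved as well, from 1577 to 2388, 2278 and 2881 in the same order. In hypoxia the count lower (58) ranged from 37 to 61 and the count higher from 0 to 1 with single libraries left out, and was 42 with the replicate block (all genes 5245 and 3942). The block called 1 gene higher in tumor (all genes 908 and 2266). Same-numbered libraries were not shown to be pairs: the correlations of their deviations were 0.036, 0.37, 0.12 and -0.057 in normoxia, -0.094, -0.11, -0.16 and 0.019 in hypoxia and 0.19, 0.080 and 0.22 in tumor, where each KO library correlated best with the WT library of its number. Library size alone moved the median of all genes to -0.11 in normoxia and to -0.16 (WT) and -0.12 (KO) for hypoxia against normoxia. With it the median of the 77 in WT was -0.46. The other 84 of 85 recomputed medians moved by less than the spread, and the summed levels moved by less than 1 SD with plain library size.

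Of named gene values, 56 of 1785 changed sign, each for a value near 0 that was not called. In normoxia Mrpl44, Mrps16 and Mrps21 were 0.018, 0.029 and 0.11 without KO replicate 4 and WT replicate 3. With single libraries left out, Mrpl44 ranged from -0.044 to 0.024, Mrps16 from -0.21 to 0.023, Mrps21 from -0.094 to 0.064 and Mrps35 from -0.054 to 0.0028. In tumor Mrps18b was -0.0044 with DESeq2 size factors, -0.015 with DESeq2 and -0.022 without a filter. The tumor ranges were Mrpl12 -0.093 to 0.022, Mrpl34 -0.029 to 0.095, Mrpl47 -0.097 to 0.058, Mrpl52 -0.051 to 0.11, Mrpl54 -0.032 to 0.12, Mrps16 -0.0090 to 0.15, Mrps18b -0.12 to 0.059, Mrps22 -0.012 to 0.12, Mrps35 -0.13 to 0.21 and Mrps36 -0.058 to 0.076. For the difference of effects they were Mrpl3 -0.050 to 0.14, Mrpl47 -0.099 to 0.18, Mrps18b -0.23 to 0.067 and Mrps6 -0.20 to 0.16, with Mrps6 at 0.018 on library size alone. Mrps30 in KO, hypoxia against normoxia, was -0.089 on library size alone and ranged from -0.044 to 0.080. The cause of these changes was not tested.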
